A study of Mus musculus with 60 samples.

Results

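The hippocampus of mice that carry the App NL-G-F knock-in (NLGF) was compared between 8 weeks of age (W8) and 3 weeks of age (W3) by RNA-seq. App encodes the precursor of amyloid-beta, and the knock-in puts familial Alzheimer mutations into the endogenous mouse gene, so that its own promoter drives the mutant protein in every cell that expresses App. The comparison used 13 of the 60 libraries of the series: all 10 NLGF libraries of W8 (5 female, 5 male) and 3 of the 10 NLGF libraries of W3 (females 2 and 3 and male 1). These libraries were chosen by their total counts: the 3 W3 libraries held under 50000000 counts, and the 7 others of that group, all above that number, were left out. No other library of the series was above that number. In every value below that is set against these 7 deeper libraries, the kind of library cannot be told apart from age or genotype. Wild-type (WT) mice of W3 and W8, 10 libraries each, served as a second set. RNA came from frozen bulk hippocampus and was depleted of ribosomal RNA, per the labels' protocols. Sex is the covariate that the series' design names. The series' design counts males and females together as biological replicates, but no label ties a library to an animal of its own, so the p-values measure the spread between libraries, which may be technical in part.

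Between these ages the mouse hippocampus passes from the juvenile to the young adult state. As background, oligodendrocyte precursors leave the cell cycle, pass through a premyelinating stage and form myelin, a membrane rich in cholesterol made within the brain. The birth of granule neurons in the dentate gyrus slows with age, perineuronal nets of chondroitin sulphate proteoglycans form around inhibitory neurons, and the vessel wall lays down its basement membrane early in life. Amyloid plaques in this line appear in young adulthood.

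Total counts were 19469508 to 33958537 in the 3 W3 libraries and 20206139 to 35162084 in the 10 W8 libraries, against 54026870 to 73423252 in the 7 left out, 17786578 to 31802957 in WT at W3 and 19277174 to 28043028 in WT at W8. App itself (chromosome 16) stood at 1796, 1577 and 1765 CPM at week 3 and at 1508 to 1768 CPM (median 1655) at week 8 (week 3 values are given in the order female 2, female 3, male 1, and CPM is the read count of a gene scaled to a common library total, after TMM normalization over all 60 libraries). Its change was -0.07 ± 0.06 (SE, adjusted p = 0.47) in log2, which did not pass the test, and gene counts do not resolve the introduced mutations. All 28 markers of dentate granule and CA field cells on the list passed the filter on low counts. Transcripts of the mitochondrial genome took 0.770% to 1.68% of counts at W3 and 1.60% to 2.78% at W8, against 2.44% to 3.11% in the 7 libraries left out.

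One W8 library stood apart from its group. A maturation score was computed for each library as the mean log2 CPM of the 272 genes called higher at W8 in WT minus that of the 555 called lower, so that no NLGF library had a part in choosing the genes. The score was 0.02, 0.14 and -0.38 in W3 female 2, female 3 and male 1. In W8 female 5 it was 0.14, and in the 9 other W8 libraries it lay between 0.78 and 1.04. The WT libraries scored -0.52 to 0.08 at W3 and 0.63 to 1.16 at W8. The genes were chosen from these same WT libraries, so the gap between the WT ages was built into the score. The library labelled W8 female 5 lay inside the range of the 3 NLGF W3 libraries, and the counts below are also given without it. It was singled out by its place along the age contrast itself, so leaving it out favours more calls and smaller p-values. The values without it show how far the calls depend on this library and are no separate test of the change with age. W8 female 1, whose title says week 8 while its age field says 3 weeks, scored 0.97 and lay with the other W8 libraries.

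**Figure D1:**
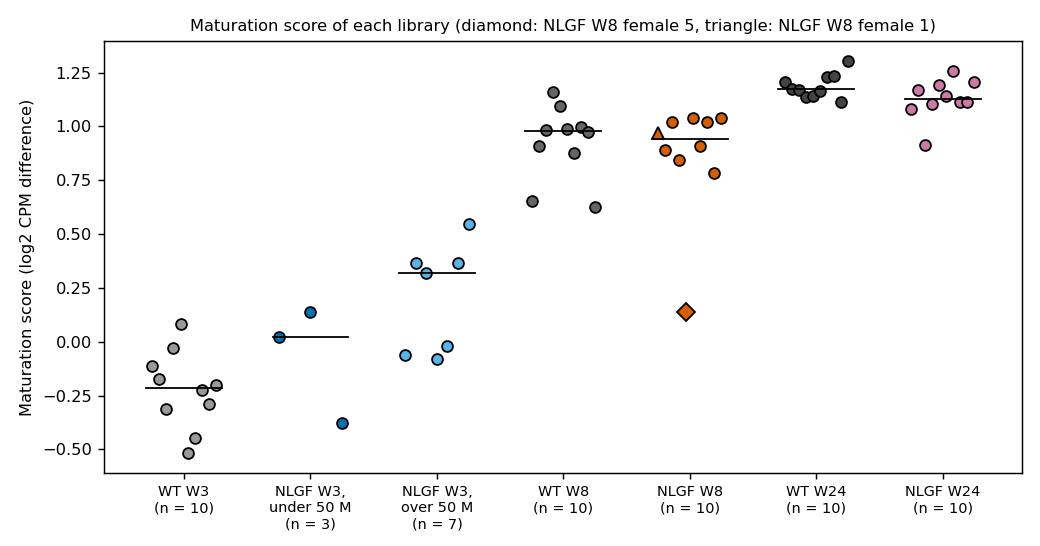
Maturation score (mean log2 CPM of genes called higher with age in WT minus mean of genes called lower, vertical axis) of each library by genotype and age, with the group median as a line. The diamond, NLGF W8 female 5, lies at 0.14 among the W3 libraries, while the other NLGF W8 libraries lie at 0.78 to 1.04.

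Of 17970 genes tested in the 13 NLGF libraries, 1852 (10.3%) passed an adjusted p of 0.05 in edgeR's quasi-likelihood test: 860 (4.79%) were higher at W8 and 992 (5.52%) lower. Without W8 female 5, 1323 of 17827 genes (7.42%) were called higher and 1581 (8.87%) lower, 2904 in all (16.3%). All 10 W8 libraries lay above all 3 W3 libraries for 636 genes (3.54%) and below them for 641 (3.57%). The shares of genes called are the background against which the counts within gene lists are read. The calls rest on W3 male 1, the only male of its age in the comparison. Without it 28 genes were called, of which 25 were among the 1852. Without W3 female 2, 451 genes were called, and without W3 female 3, 3149. All 1852 genes kept their direction without W3 male 1. They were chosen by a fit that holds every other library of the reduced one, so the kept direction is no separate support. The 23 genes called with every library left out in turn (15 higher, 8 lower) held, among named genes, Adnp, Pnrc1, Fam120aos, ND6, Rpl27a, Hmgn5, Hnrnpa2b1, Hspe1, Rpl22l1, Naf1, Serpinb1a, Apc, Mapkbp1, Cited2, Cebpb, Alas2 and Col4a1.

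**Figure D2:**
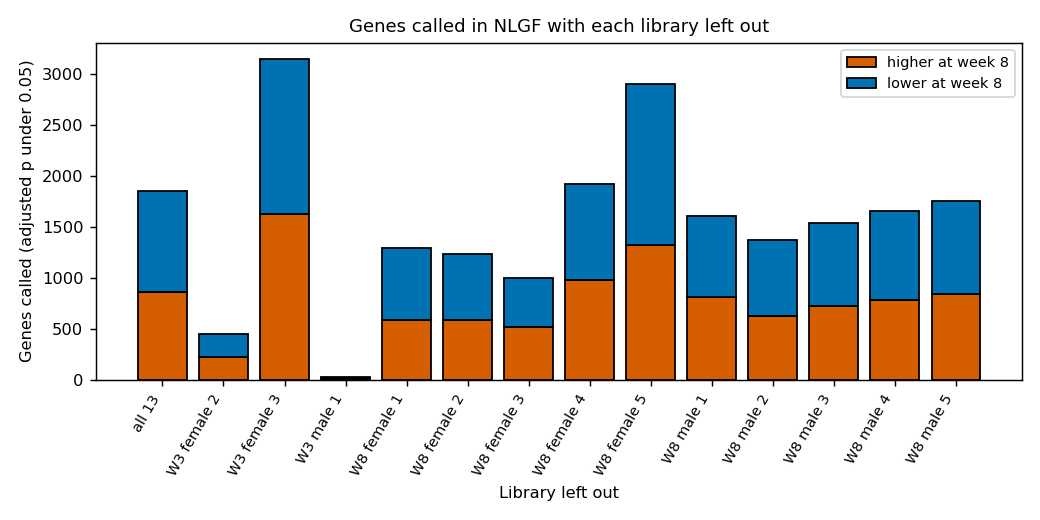
Number of genes called in NLGF (adjusted p under 0.05, stacked by direction, vertical axis) with all 13 libraries and with the library named on the horizontal axis left out. The count falls from 1852 to 28 without W3 male 1 and rises to 3149 without W3 female 3 and to 2904 without W8 female 5.

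Part of the oligodendrocyte precursor genes were lower at W8. Of 24 genes of oligodendrocyte precursors and their differentiation, 9 fell and 0 rose, with a median log2 change of -0.41 against 0.01 over all genes tested. Without W8 female 5, 17 fell, and without W3 male 1, 0 passed the test. In bulk tissue fewer cells of a type and less RNA per cell cannot be told apart. Gpr17 (chromosome 18, 31942999 to 31949890, in GRCm38.p6 as for all positions here), a receptor that marks premyelinating cells, stood at 146, 129.7 and 174 CPM at week 3 and at 48.2 to 135 CPM (median 55.8) at week 8. The high value at W8 was W8 female 5, and the 9 others lay at 48.2 to 64.1 CPM, below every W3 library. Its log2 change was -1.25 ± 0.26 (SE, adjusted p = 0.016), 2.38-fold lower, and -1.46 (adjusted p = 1.8e-07) without W8 female 5. Pdgfra, the growth factor receptor of the precursors, stood at 88, 91 and 92 CPM at week 3 and at 64 to 77.3 CPM (median 69.9) at week 8, with no overlap between ages and a log2 change of -0.35 ± 0.07 (SE, adjusted p = 0.0065). Itpr2, an inositol trisphosphate receptor of newly formed oligodendrocytes, fell from 64.1, 68.5 and 79.8 CPM to 39.4 to 56.7 CPM, by 0.66 in log2 (adjusted p = 0.0027). Enpp6, a marker of the same stage, did not pass with all libraries (log2 change -0.99 ± 0.39 SE, adjusted p = 0.13). It passed when W8 female 5, chosen by its age score, was left out (-1.35, adjusted p = 0.00011).

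The calls among myelin genes turned on W8 female 5. Of 29 genes of mature myelin, 3 rose and 0 fell with all 13 libraries, whereas 3 rose and 15 fell without W8 female 5, and the median log2 change went from -0.41 to -0.61. The summed level of the list was 10796 to 12292 CPM at W3, 4609.7 to 7695 CPM in 9 of the W8 libraries and 18229 CPM in W8 female 5, above every other library of the comparison. Mbp, myelin basic protein, stood at 4207, 3361 and 3875 CPM at week 3 and at 1534 to 5835 CPM (median 1903) at week 8. The 9 other W8 libraries held 1534 to 2549 CPM, all under the W3 values, and W8 female 5 held 5835 CPM. The change in log2 was -0.68 ± 0.35 (SE, adjusted p = 0.22) with all libraries, short of the threshold, and -0.99 (adjusted p = 0.00079) without W8 female 5. Mog, a surface protein of the outermost myelin, gave 114, 103 and 98.9 CPM at W3, 35.9 to 59.9 CPM in the 9 and 174 CPM in W8 female 5. Without that library the log2 change of Mog was -1.14 (adjusted p = 0.00019) and that of Mag -1.42 (adjusted p = 0.00021). In WT, 2 of the 29 rose and 15 fell.

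Il33 had the largest rise among called genes that have a name of their own and average 1 CPM or more. It encodes an alarmin cytokine that in the brain is made by oligodendrocytes and astrocytes. Il33 (chromosome 19, 29925113 to 29960718) stood at 8.56, 13.5 and 7.66 CPM at week 3 and at 10.5 to 47 CPM (median 38.1) at week 8. The lowest W8 value was that of W8 female 5, inside the W3 range, and the 9 others held 31.1 to 47 CPM. The log2 change was 1.79 ± 0.39 (SE, adjusted p = 0.019), 3.47-fold higher, and 1.96 (adjusted p = 4.3e-05) without W8 female 5. It was 1.54 (adjusted p = 0.20) without W3 male 1. The 2 other members of the myelin list that rose were Qdpr, a pterin reductase, at 0.60 ± 0.13 (SE, adjusted p = 0.014), and Car2, a carbonic anhydrase, at 0.42 ± 0.11 (SE, adjusted p = 0.021). Both rose also without W8 female 5, in which Qdpr stood at 162 CPM, the W8 maximum. Without W3 male 1 neither Qdpr nor Car2 was called (adjusted p = 0.20 and 0.25). Nfasc, which anchors channel clusters and paranodes along the axon, stood at 919.7, 755 and 987 CPM at week 3 and at 386 to 936 CPM (median 420.5) at week 8, with W8 female 5 at the top and the 9 others at 386 to 472 CPM. Nfasc fell by 0.89 in log2 (adjusted p = 0.028), and the scaffold ankyrins Ank2 and Ank3 also fell (log2 change -0.28 and -0.30), 3 of the 15 genes of the node of Ranvier and paranode. Without W3 male 1 the node list had no call, with adjusted p of 0.33 for Nfasc, 0.15 for Ank2 and 0.22 for Ank3.

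**Figure D3:**
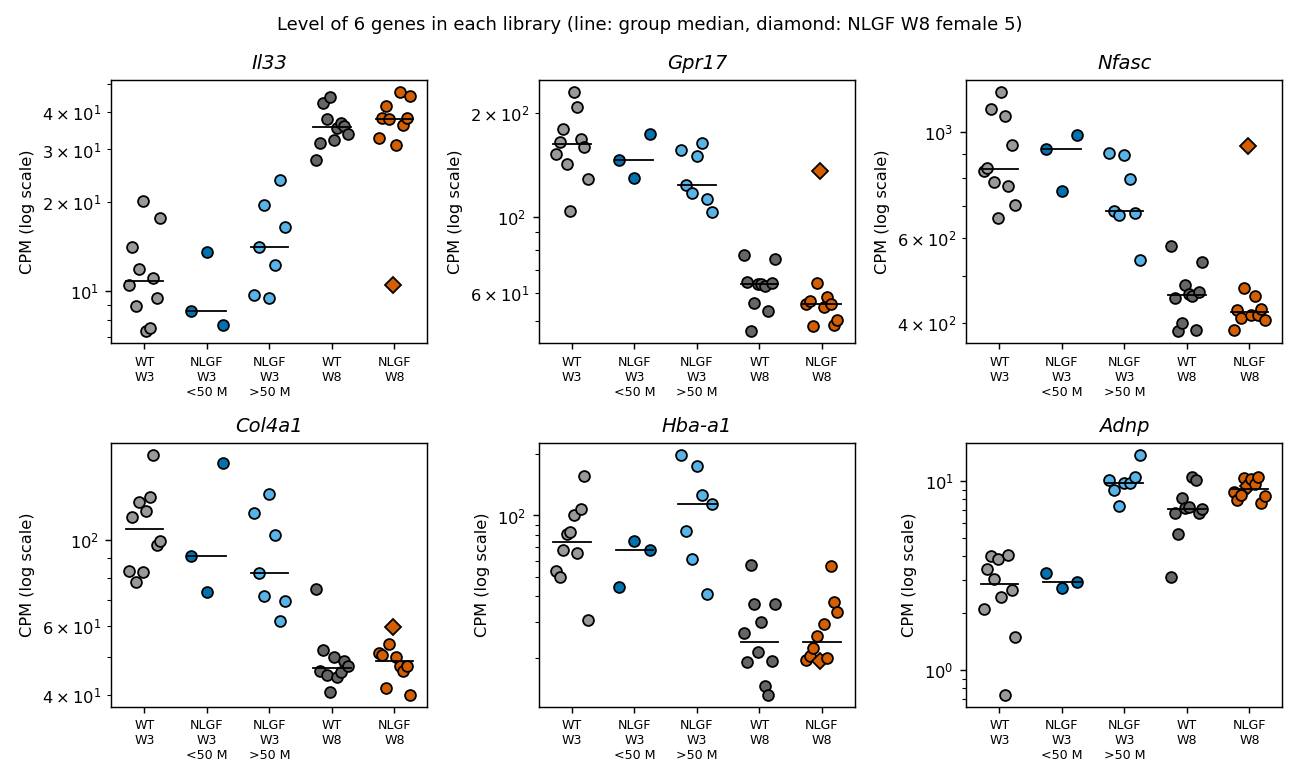
CPM (log axis) of Il33, Gpr17, Nfasc, Col4a1, Hba-a1 and Adnp in each library of the WT and NLGF groups at W3 and W8, NLGF W3 split at 50000000 total counts, with the group median as a line. The diamond, NLGF W8 female 5, lies with W3 for Il33, Gpr17 and Nfasc and with W8 for Hba-a1 and Adnp, and the 7 deeper W3 libraries lie at the W8 level for Adnp only.

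Part of the genes of sterol and fatty acid synthesis were also lower at W8. Of 32 genes of these pathways, 10 were lower at W8 and 0 higher (Fads2, Acaca, Fasn, Fdps, Sqle, Pmvk and Mvd among them), with a median log2 change of -0.32. Without W8 female 5, 20 fell, the same number as in WT. Without W3 male 1, 0 of 32 passed, and 14 fell when both libraries were left out. Fads2, a fatty acid desaturase, stood at 146, 143 and 166 CPM at week 3 and at 105 to 127 CPM (median 122) at week 8, with every W8 library below every W3 library. Fads2 changed by -0.35 ± 0.07 (SE, adjusted p = 0.0073) in log2 and, in WT, by -0.12 (adjusted p = 0.56). Sqle, squalene epoxidase, stood at 83, 85.2 and 86.7 CPM at week 3 and at 56.7 to 86.2 CPM (median 66) at week 8 and fell by 0.34 in log2 (adjusted p = 0.031). Fdps, farnesyl diphosphate synthase, fell by 0.40 (adjusted p = 0.030) and by 0.55 in WT (adjusted p = 0.00025). Against the 7 deeper W3 libraries the log2 changes of Acaca and Fasn, of fatty acid synthesis, were 0.13 and 0.003 in place of -0.32 and -0.37, and that of Sqle -0.32.

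Promoters are shown for Fasn and Mvd, called members of the list, from 250 bases before to 50 bases after the annotated start (RefSeq, GRCm38.p6). Capitals mark CCAAT on either strand, the letters that bind the factor NF-Y, a partner of the sterol-responsive factor SREBP.
Fasn (chr11:120824498-120824797, - strand): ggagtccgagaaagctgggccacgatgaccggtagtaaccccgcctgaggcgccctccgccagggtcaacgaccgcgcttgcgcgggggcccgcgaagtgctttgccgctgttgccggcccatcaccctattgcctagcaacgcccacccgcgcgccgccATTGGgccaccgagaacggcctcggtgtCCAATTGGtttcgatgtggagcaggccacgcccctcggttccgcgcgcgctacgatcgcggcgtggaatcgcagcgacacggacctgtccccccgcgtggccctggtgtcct
Mvd (chr8:122443373-122443672, - strand): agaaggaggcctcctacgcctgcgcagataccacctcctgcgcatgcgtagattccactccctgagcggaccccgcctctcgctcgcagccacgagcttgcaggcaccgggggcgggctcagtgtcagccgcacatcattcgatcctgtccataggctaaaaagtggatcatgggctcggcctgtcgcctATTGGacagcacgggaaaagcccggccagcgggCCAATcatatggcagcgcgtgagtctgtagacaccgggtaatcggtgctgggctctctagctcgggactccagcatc
Promoter windows were listed for 22 of the 32 list members. CCAAT was found in 19 of them (86.4%), against 41.1% of 27025 genes with a window. The sterol response element core CACCCCAC was found in 1 member, Hmgcs1, against 3.30% of all genes. A match describes letters and is not a bound site.

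W8 female 5 did not take the W3 side for all genes. Among the 2904 genes called from the other 12 libraries, its level was nearer to the W3 mean for 1452 and nearer to the W8 mean for 1452. The share differed by direction: it was nearer to W3 for 472 of the 1323 called higher (35.7%) and for 980 of the 1581 called lower (62.0%). It was nearer to W3 for 19 of 20 called genes of sterol and fatty acid synthesis, 16 of 18 of mature myelin and 15 of 17 of oligodendrocyte precursors. It was nearer to W3 for 1 of 7 called blood genes, 2 of 14 collagens and laminins, 1 of 8 subunits of oxidative phosphorylation and 2 of 14 ribosomal proteins. For Mbp and Mog it lay above all 3 W3 libraries. The share of genes that this library holds on the W3 side thus differed between lists and between directions. The lists differ in how many of their calls rose or fell, and what sets the share was not tested.

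**Figure D4:**
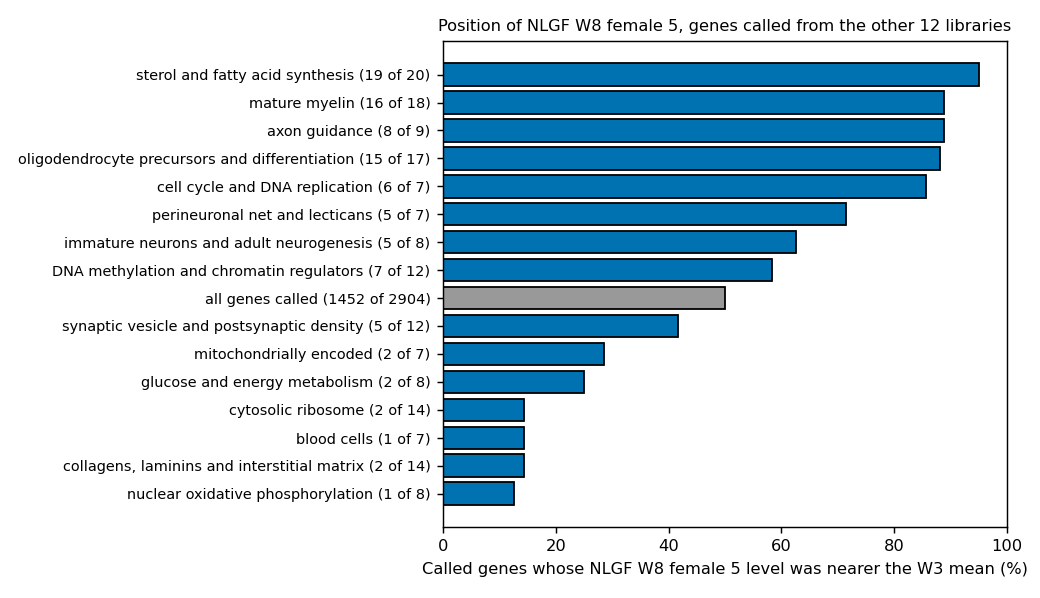
Share of called genes (horizontal axis, percent) whose level in NLGF W8 female 5 was nearer to the W3 mean than to the mean of the 9 other W8 libraries, for all 2904 genes called without it and for lists with at least 7 such genes. The share is 95.0% for sterol and fatty acid synthesis and 12.5% for nuclear oxidative phosphorylation.

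Blood genes had the lowest median of all lists. Of 9 blood cell genes tested, 6 fell and 0 rose, with a median log2 change of -1.29, and 7 others in the table, of red cells and granulocytes (S100a8 and S100a9 among them), were too low to test. Hba-a1, an alpha-globin chain, stood at 44.3, 74.9 and 67.3 CPM at week 3 and at 19.3 to 56.6 CPM (median 24) at week 8, so that the ages overlapped through W8 male 3. The log2 change of Hba-a1 was -1.29 ± 0.24 (SE, adjusted p = 0.011). Alas2, the first enzyme of haem synthesis in red cells, stood at 5.83, 11.7 and 9.09 CPM at week 3 and at 2.44 to 5.22 CPM (median 3.45) at week 8 with no overlap and a log2 change of -1.39 ± 0.22 (SE, adjusted p = 0.0032). It was the blood gene that was still called without W3 male 1 (-1.52, adjusted p = 0.049). Slc4a1, the anion exchanger of the red cell membrane, fell by 2.16 in log2 (adjusted p = 0.013) from at most 1.91 CPM. Hba-a1 and Hba-a2, and Hbb-bs and Hbb-bt, are near-identical copies whose reads the counting could split either way. In WT 7 of 9 fell.

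Many genes of the extracellular matrix were lower at W8. Of 35 collagens, laminins and related matrix genes, 13 were lower at W8 and 0 higher, and the median log2 change was -0.55. Without W3 female 2, 10 were called, and without W3 male 1 only Col4a1. Col4a1 (chromosome 8, 11198423 to 11312889), a chain of the basement membrane collagen, stood at 91.1, 73.3 and 158 CPM at week 3 and at 40.0 to 59.7 CPM (median 48.7) at week 8, and no W8 library reached the W3 range. Col4a1 changed by -1.14 ± 0.17 (SE, adjusted p = 0.0034) in log2, 2.21-fold lower, and -0.68 (adjusted p = 0.036) without W3 male 1. Col4a2, its partner chain, changed by -0.95 ± 0.14 (SE, adjusted p = 0.0031), and Agrn, agrin of the vessel and synapse matrix, by -0.57 ± 0.08 (SE, adjusted p = 0.0027). Eln, the elastic fibre protein, had the largest fall among called genes that average 1 CPM or more and stood at 20.3, 18.2 and 96.3 CPM at week 3 and at 6.64 to 13.2 CPM (median 10.2) at week 8. The size rested on W3 male 1: the log2 change was -2.05 ± 0.40 (SE, adjusted p = 0.014) with it and -0.75 (adjusted p = 0.077) without it. Col1a1, the fibrillar collagen of meninges and vessel walls, gave 30.3, 30.1 and 159.9 CPM at W3 and did not pass (adjusted p = 0.055). The markers of mural cells and meninges, which make such matrix, summed to 503 to 833 CPM at W3 and 551 to 999 CPM at W8, with 1 of 20 higher (Foxc1) and 2 lower (Pdgfrb and Cspg4), and their part in the result was not tested. Of 28 endothelial and angiogenesis genes 3 fell and 0 rose, against 5.52% of all genes called lower and 10.3% called in either direction. Mfsd2a, the lipid transporter of the blood-brain barrier, changed by -0.74 ± 0.12 (SE, adjusted p = 0.0032). Kdr, the VEGF receptor, changed by -0.63 ± 0.16 (SE, adjusted p = 0.026), and Eng, endoglin, by -0.47 ± 0.14 (SE, adjusted p = 0.045). Without W3 male 1 the endothelial list had no call.

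Some genes of young neurons and dividing cells were lower at W8. Of 25 genes of immature neurons and adult neurogenesis, 6 fell and 0 rose (median log2 change -0.35). They were Dpysl3 and Dpysl5, collapsin response mediators of growing axons, Tubb2b, a tubulin of young neurons, Nes, the intermediate filament of neural stem cells, Draxin, a guidance cue, and the transcription factor gene Sox4. Dpysl5 stood at 67.7, 56.7 and 89.3 CPM at week 3 and at 33.6 to 52 CPM (median 40.1) at week 8, without overlap, and its log2 change was -0.81 ± 0.13 (SE, adjusted p = 0.0043). Dcx, the most used marker of newborn neurons, stood at 27.3, 34.6 and 32.5 CPM at week 3 and at 18.2 to 32.8 CPM (median 21) at week 8, with overlapping ages, and did not pass (log2 change -0.44 ± 0.18 SE, adjusted p = 0.13). Of 26 cell cycle and replication genes 5 fell (Mki67, Top2a, Ccnd2, Cenpf and Tyms) and 1 rose (Ccne2). Mki67, the antigen of proliferating cells, stood at 8.76, 7.85 and 10.1 CPM at week 3 and at 3.53 to 6.72 CPM (median 4.78) at week 8, with every W8 library below every W3 library, and fell 1.80-fold, a log2 change of -0.85 ± 0.15 (SE, adjusted p = 0.0046). Top2a, the topoisomerase of dividing cells, stood at 4.46, 5.0 and 6.23 CPM at week 3 and at 2.08 to 4.97 CPM (median 2.61) at week 8, with W8 female 5 at the top of W8. Without W3 male 1 neither list had a call. Ccne2 is the exception in direction, and against the 7 deeper W3 libraries its log2 change was -0.27 in place of 0.87.

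The promoters of Mki67 and Top2a, the leading members of the cell cycle list, are shown over the same window, with capitals marking the cell cycle homology region TTTGAA, to which late cell cycle repressor and activator complexes bind, on either strand.
Mki67 (chr7:135716330-135716629, - strand): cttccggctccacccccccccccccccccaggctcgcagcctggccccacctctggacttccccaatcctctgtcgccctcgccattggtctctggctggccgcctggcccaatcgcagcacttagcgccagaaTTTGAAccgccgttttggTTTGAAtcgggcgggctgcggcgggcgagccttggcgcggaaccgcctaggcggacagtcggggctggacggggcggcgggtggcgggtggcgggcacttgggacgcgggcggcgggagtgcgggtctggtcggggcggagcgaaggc
Top2a (chr11:99024140-99024439, - strand): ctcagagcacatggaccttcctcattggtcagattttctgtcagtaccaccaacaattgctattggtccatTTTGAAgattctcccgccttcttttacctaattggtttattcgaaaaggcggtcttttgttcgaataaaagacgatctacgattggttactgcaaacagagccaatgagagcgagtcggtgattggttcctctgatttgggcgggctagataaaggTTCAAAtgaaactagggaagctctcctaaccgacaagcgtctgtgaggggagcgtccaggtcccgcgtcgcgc
The letters were found in 9 of 20 members with a window (45%) and in 20.2% of all genes. CCAAT was found in 16 of the 20 (80.0%), against 41.1% of all genes.

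Part of the genes of perineuronal nets and of axon guidance were lower at W8. Of 19 genes of the net and its lecticans, 5 fell (Ncan, Tnc, Bcan, Tnr and Acan) and 0 rose. Ncan, neurocan of the juvenile matrix, stood at 724, 625 and 758 CPM at week 3 and at 376 to 551 CPM (median 472) at week 8, and Bcan, brevican of the adult matrix, at 354, 288 and 401 CPM at week 3 and at 201 to 279 CPM (median 245) at week 8. Neither overlapped between ages, and their log2 changes were -0.60 ± 0.09 (SE, adjusted p = 0.0027) and -0.55 ± 0.10 (SE, adjusted p = 0.0051). The log2 ratio of Bcan to Ncan within a library changed by 0.07 (exact permutation test, 2-sided, p = 0.13, adjusted over 8 gene pairs 0.20). Acan, aggrecan of mature nets, stood at 15.4, 13.5 and 14 CPM at week 3 and at 6.29 to 17.3 CPM (median 7.39) at week 8, W8 female 5 holding the maximum, and fell by 0.75 in log2 (adjusted p = 0.041). Of 37 axon guidance genes 5 fell, against 5.52% of all genes called lower: the receptors Plxnb1, Plxna4, Ephb1, Ephb2 and Robo1. Plxnb1, a semaphorin receptor, stood at 227, 201 and 231 CPM at week 3 and at 144 to 175 CPM (median 163) at week 8 with no overlap. Against the 7 deeper W3 libraries, which held 149 to 184 CPM, the log2 change of Plxnb1 was -0.06 in place of -0.46, and that of Plxna4 was 0.07 in place of -0.33. Without W3 male 1 neither list had a call.

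Dnmt3a, Tet1 and Tet3, which write or oxidise DNA methylation, were lower at W8. Dnmt3a, the de novo methyltransferase of maturing neurons, stood at 169, 173 and 251 CPM at week 3 and at 95 to 163 CPM (median 101) at week 8, with W8 female 5 at the maximum and the 9 others at 95 to 115 CPM. Its log2 change was -0.89 ± 0.15 (SE, adjusted p = 0.0059), 1.85-fold lower, -0.99 (adjusted p = 1.9e-05) without W8 female 5 and -0.59 (adjusted p = 0.14) without W3 male 1. Tet3 and Tet1, dioxygenases that oxidise methylcytosine, changed by -0.55 ± 0.10 (SE, adjusted p = 0.0059) and -0.59 ± 0.13 (SE, adjusted p = 0.014). Dnmt1, the maintenance methyltransferase, stood at 77.1, 66.4 and 80.7 CPM at week 3 and at 58.8 to 69.3 CPM (median 65.8) at week 8 and did not pass (log2 change -0.21 ± 0.07 SE, adjusted p = 0.063). Smarca4, a chromatin remodeller, and Hdac4, a histone deacetylase, also fell, and Cbx3 and Suz12, of heterochromatin and Polycomb complexes, rose, so that 5 of the 31 genes on the list fell and 2 rose. Without W3 male 1 this list had no call. In WT, 5 fell and 1 rose, and Dnmt3a changed by -0.77 (adjusted p = 3.1e-06).

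Synaptic genes were called in both directions. The counts of this paragraph are to be read against the 10.3% of all genes called in either direction, and those of the receptor and channel lists lie below that share. Of 36 genes of synaptic vesicles and the postsynaptic density, 3 rose (Homer1, Nptxr and Syt4) and 5 fell (Dlg4, Syt7, Shank2 and Syp among them). Nptxr, a neuronal pentraxin receptor, stood at 42.2, 34.8 and 64.3 CPM at week 3 and at 60.7 to 128 CPM (median 102) at week 8, with the ages overlapping through W3 male 1, and its log2 change was 1.04 ± 0.23 (SE, adjusted p = 0.017). In WT it was 1.27 (adjusted p = 0.037), and against the 7 deeper NLGF libraries (73.6 to 115 CPM) it was 0.07. Dlg4, which encodes the scaffold PSD-95, stood at 1139, 1056 and 1157 CPM at week 3 and at 795 to 1009 CPM (median 917) at week 8, with every W8 library below W3, and fell by 0.31 in log2. Of 25 AMPA, NMDA and kainate receptor genes, 2 fell (the auxiliary subunit gene Cacng4 and Grin2c, an NMDA receptor subunit gene). Of 31 sodium, potassium and HCN channel genes 1 fell, Kcnh1. Of 19 GABA-A receptor and chloride transporter genes 0 passed, and without W8 female 5, 5 of the 19 rose. Of 23 interneuron identity genes 0 passed, Pvalb at 19.9, 23.5 and 19.6 CPM at week 3 and at 15.5 to 27.9 CPM (median 22) at week 8 included. Without W3 male 1 none of these lists had a call.

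Ratios of adult to juvenile partner genes were tested within libraries, which removes scaling. Over 8 pairs, 0 passed after adjustment, and 2 had an unadjusted p under 0.05 in the exact permutation test (2-sided, 3 against 10 libraries). With so few libraries, a lone pair with fully separated ages would not pass after adjustment over 8 pairs. That 0 passed therefore does not show that the ratios stayed the same. The log2 ratio of Calb1, of mature granule cells, to Dcx was 0.98, 1.23 and 1.18 at W3 and 1.01 to 2.17 at W8, a difference of 0.67 (exact p = 0.028, adjusted 0.14). The log2 ratio of Grin2a to Grin2b, the adult to the juvenile NMDA receptor subunit, was -0.79, -0.72 and -0.99 at W3 and -0.97 to -0.67 at W8, with overlapping ages (exact p = 0.95). The log2 ratio of Mog to Pdgfra was 0.38, 0.18 and 0.11 at W3. At W8 its median was -0.61, while W8 female 5 held 1.22 (exact p = 0.18, adjusted 0.24). In WT, with 10 against 10 libraries, the same ratio differed by -1.02 (permutation test, adjusted p = 0.0013).

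Part of the respiratory and ribosomal genes rose. Of 13 genes of the mitochondrial genome, 6 rose and 0 fell, with a median log2 change of 0.91. ND6, a complex I subunit from the light strand, stood at 254, 373 and 175 CPM at week 3 and at 672 to 1027 CPM (median 874) at week 8, with no overlap, and changed by 1.75 ± 0.19 (SE, adjusted p = 0.0014), 3.37-fold higher. Without a stated strand setting, reads of ND6 cannot be told apart from those of the opposite strand. ND6 kept its call without W3 male 1 (1.49, adjusted p = 0.0096), whereas ND2 did not (0.98, adjusted p = 0.15). In the 7 deeper W3 libraries ND6 stood at 881 to 1194 CPM and ND2 at 2329.5 to 3064 CPM, so that the log2 change of W8 against them was -0.22 and -0.45. Of the 13 genes 6 were higher and 6 lower against those libraries. The share of counts from the mitochondrial genome, given above, moved in the same way, and its part in the result was not tested. Of 33 nuclear genes of oxidative phosphorylation 7 rose and 0 fell (Cox7c, Ndufv2, Ndufa5, Cox6c, Atp5l, Atp5j and Cycs). Cox7c, a cytochrome oxidase subunit, stood at 57, 70.9 and 63.1 CPM at week 3 and at 74.5 to 97 CPM (median 90.1) at week 8 and changed by 0.46 ± 0.08 (SE, adjusted p = 0.0047). Of 34 cytosolic ribosomal protein genes 10 rose and 1 fell (Rplp0). Rpl38 stood at 61.7, 64.6 and 45.1 CPM at week 3 and at 80.1 to 94.9 CPM (median 82.4) at week 8, with no overlap, and changed by 0.56 ± 0.09 (SE, adjusted p = 0.0036). Without W3 male 1, 0 of the 33 and 0 of the 34 were called. In WT 0 of the 33 passed, and 0 of the 34 rose while 1 fell.

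Called genes differed in length by direction. The median length of the longest annotated transcript was 2875 bases for the genes that rose and 4200.5 for those that fell, against 3042 for all tested genes with a length (89.6% of them). Split into 4 equal parts by length, the shortest genes held 238 that rose and 80 that fell, and the longest 182 and 410. In WT the medians were 3575 and 3762. The part of length or of RNA quality in the calls was not tested.

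Adnp had the smallest p of all genes. It encodes a zinc finger and homeobox protein of the nervous system that binds chromatin. Adnp (chromosome 2, 168180965 to 168207112) stood at 3.27, 2.73 and 2.91 CPM at week 3 and at 7.69 to 10.5 CPM (median 9.07) at week 8, with 9.41 CPM in W8 female 5, and every W8 library lay above every W3 library. Its log2 change was 1.61 ± 0.13 (SE, adjusted p = 2.8e-05), 3.05-fold higher. In WT it stood at 0.741 to 4.08 CPM at W3 and 3.11 to 10.5 CPM at W8, a log2 change of 1.38 (adjusted p = 0.00082). The 7 deeper NLGF libraries of W3 held 7.38 to 13.7 CPM, and against them the log2 change was -0.10 (adjusted p = 0.50). Next by p among the risers were Pnrc1, a nuclear receptor coregulator (0.64 ± 0.06 SE, adjusted p = 0.00020), and Fam120aos (0.98 ± 0.11 SE, adjusted p = 0.0010), whose levels in the deeper W3 libraries were 78.6 to 99.4 CPM and 11 to 14.1 CPM. Fam120aos is annotated as the opposite-strand neighbour of Fam120a, and without a stated strand setting any reads from where the pair overlap cannot be told apart. The 3 with the smallest p among those that fell were Apc, a scaffold of Wnt signalling and microtubules (-0.62 ± 0.08 SE, adjusted p = 0.0016), Mapkbp1 (-0.43 ± 0.06 SE, adjusted p = 0.0018) and Traf3, an adaptor of tumour necrosis factor receptors (-0.76 ± 0.10 SE, adjusted p = 0.0020).

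Other genes among the 15 largest rises had low levels. Serpinb1a, an intracellular inhibitor of neutrophil serine proteases, stood at 2.77, 2.03 and 1.12 CPM at week 3 and at 4.43 to 7.20 CPM (median 5.91) at week 8, with no overlap and a log2 change of 1.55 ± 0.23 (SE, adjusted p = 0.0027). Hmgn5, a nucleosome-binding protein, stood at 2.15, 2.0 and 1.94 CPM at week 3 and at 4.14 to 6.57 CPM (median 5.34) at week 8 and changed by 1.37 ± 0.17 (SE, adjusted p = 0.0015). Zfp97, Cmc4, Hist2h2ab, Spa17, Snord64, Mitd1, Plcz1 and Zbbx had medians at W8 of 1.24 to 2.25 CPM and log2 changes between 1.09 and 1.55. Bc1, a short RNA of dendrites, stood at 9.18, 16.3 and 2.25 CPM at week 3 and at 17.5 to 30.0 CPM (median 24.1) at week 8, with a log2 change of 1.43 ± 0.40 (SE, adjusted p = 0.044). In the 7 deeper W3 libraries it stood at 1776 to 5815 CPM. Other large falls were those of Il12rb1 (-1.83 ± 0.41 SE, adjusted p = 0.016), Slc45a3 (-1.44 ± 0.42 SE, adjusted p = 0.046), Cldn14 (-1.38 ± 0.42 SE, adjusted p = 0.049), Rassf10 (-1.36 ± 0.29 SE, adjusted p = 0.012) and Mkrn3 (-1.35 ± 0.38 SE, adjusted p = 0.035), in all of which W8 female 5 held the W8 maximum. Vipr2, a receptor for vasoactive intestinal peptide, gave 0.62, 0.788 and 6.03 CPM at W3, so that its log2 change of -1.70 became -0.30 (adjusted p = 0.82) without W3 male 1. Adamts18, a matrix protease, changed by -1.34 ± 0.27 (SE, adjusted p = 0.0095).

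The astrocyte and microglia lists had 2 to 4 calls each and the immune lists at most 1, to be read against the 10.3% called over all genes. Of 21 plaque-associated microglia genes tested 2 fell, Fabp5 and Axl, and 4 of the list (Cst7, Clec7a, Ccl3 and Ccl4) were too low to test. Cst7, a protease inhibitor that marks microglia at plaques, was at 0.0413, 0.273 and 0.102 CPM at W3 and at most 0.264 CPM at W8. Trem2, the lipid-sensing receptor of microglia, stood at 6.37, 6.15 and 8.28 CPM at week 3 and at 5.68 to 8.24 CPM (median 6.47) at week 8 (adjusted p = 0.62). Of 20 homeostatic microglia genes 2 fell, Csf1r and Sparc, the second of which is also made by vessel cells. P2ry12, their purinergic receptor, stood at 18.1, 24.9 and 17.3 CPM at week 3 and at 19.6 to 30.0 CPM (median 23.3) at week 8 and did not pass (log2 change 0.23 ± 0.13 SE, adjusted p = 0.25). Of 27 astrocyte genes Aldh1l1, Slc4a4 and Aldoc fell and Sox9 rose, while Gfap stood at 343, 380.4 and 449 CPM at week 3 and at 237 to 451 CPM (median 342) at week 8 (adjusted p = 0.51). Of 26 complement and antigen presentation genes 1 rose, B2m, and of 19 interferon response genes 0 passed. Among 22 genes of App and its processing 3 fell, among them Aph1a, a subunit of gamma-secretase (-0.36 ± 0.11 SE, adjusted p = 0.040), and Bace1, beta-secretase (-0.47 ± 0.14 SE, adjusted p = 0.039). For all 3, W8 female 5 held the highest W8 value, and without W3 male 1 none was called. The astrocyte, microglia and immune lists of this paragraph had no call without W3 male 1 either.

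Of the remaining lists, glucose and energy metabolism had 7 of 30 genes lower and 0 higher, led by Bdh1, a ketone body enzyme (-0.49 ± 0.08 SE, adjusted p = 0.0037), and Pfkm, a phosphofructokinase (-0.36 ± 0.08 SE, adjusted p = 0.012). Against the 7 deeper W3 libraries the same list had 11 higher and 4 lower, with a median log2 change of 0.15 in place of -0.13. Pfkm stood at 453, 411 and 482 CPM at week 3 and at 309.6 to 397 CPM (median 356) at week 8 and at 281 to 364 CPM in the deeper W3 libraries. Of 22 heat shock and folding genes 3 rose and 2 fell, and Hspe1, the mitochondrial co-chaperonin, rose by 0.72 ± 0.09 (SE, adjusted p = 0.0015). Of 19 clock genes 3 rose (Bhlhe41 and Bhlhe40 among them) and 0 fell, and in WT also 3 rose. Of 23 immediate early genes 2 rose (Homer1 and Egr4), and Fos stood at 7.32, 11.3 and 13.5 CPM at week 3 and at 5.56 to 37.2 CPM (median 15.1) at week 8 (adjusted p = 0.56). Msi2, Elavl4 and Ptbp2, which encode RNA-binding proteins, rose among 21 tested genes of the list of fetal growth and RNA-binding regulators, and H19 and Peg3, both imprinted, fell among 23. H19 gave 0.248, 0.636 and 2.15 CPM at W3 and at most 0.406 CPM at W8. Against the 7 deeper W3 libraries the log2 change was below 0 for several of these and other risers, at -0.09 for Homer1, -0.30 for Egr4, -0.22 for Msi2, -0.21 for Elavl4, -0.28 for Sox9, -0.15 for B2m and -0.28 for Foxc1. The choroid plexus list passed in 0 of 18 genes. Its summed level ran from 601 to 1608 CPM at W3 and from 499 to 8333 CPM at W8, with Ttr, transthyretin, at 250.3, 836 and 685 CPM at week 3 and at 154 to 4830.2 CPM (median 445) at week 8. Markers of ependyma (18 genes), neighbouring brain regions (24 genes) and dentate granule and CA field cells (28 genes) gave 0, 0 and 1 calls. All these counts are to be read against the 10.3% of genes called over all, and those of the immediate early and imprinted lists lie below that share. Without W3 male 1, Hspe1 was the only gene still called in the lists of this paragraph.

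The same contrast in WT, from separate libraries, gave 272 genes higher (1.68%) and 555 lower (3.43%) of 16170 tested, 827 in all (5.11%). Without WT W8 female 1 it gave 1808 (817 higher, 991 lower), and voom with sample weights gave 1959, so the overlaps below rest on the first of these counts. Of the 1823 NLGF calls tested in WT, 1648 (90.4%) moved in the same direction there, against 66.9% of all 16170 genes tested in both. Called in both genotypes in the same direction were 295 genes, 15.9% of the NLGF calls and 35.7% of the WT calls, of which 89 were higher and 206 lower, and 0 were called in opposite directions. Of the 827 WT calls 805 (97.3%) had the same direction in NLGF. Across genes the log2 changes of the genotypes had a Pearson r of 0.57 and a Spearman rho of 0.51, where genes are not independent replicates. The difference between the NLGF change and the WT change passed the test for 0 of 18215 genes (0%), with edgeR. At an unadjusted p under 0.05 there were 1580 genes with edgeR, and DESeq2 also called 0. With the 7 deeper NLGF libraries of W3 in place of the 3, 422 genes passed, a count in which the kind of library cannot be told apart from genotype and age. With 3 libraries at W3 in NLGF, a p that misses the threshold does not show that the genotypes changed alike.

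List medians of the genotypes had the same sign for some lists and opposite signs for others. The median log2 change was -0.61 in WT and -0.55 in NLGF for collagens and laminins, -1.46 and -1.29 for blood genes, and -0.41 and -0.32 for sterol synthesis. For mature myelin it was -0.74 in WT and -0.41 in NLGF, or -0.61 without W8 female 5. For axon guidance it was 0.0044 and -0.12, and for synaptic genes 0.10 and -0.14. It was -0.16 in WT and 0.26 in NLGF for histones, and -0.34 and 0.03 for interferon response genes. The difference between these medians was not tested. Gpr17 changed by -1.36 (adjusted p = 3.3e-07) in WT, Il33 by 1.62 (adjusted p = 1.3e-06), Col4a1 by -1.13 (adjusted p = 6.1e-06) and Eln by -2.07 (adjusted p = 0.0016). Cox7c changed by -0.23 (adjusted p = 0.56) in WT and Ank2 by -0.0028 (adjusted p = 0.99), and the unadjusted p of the difference from NLGF was 0.0040 and 0.0034 (adjusted 0.57 and 0.57).

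**Figure D5:**
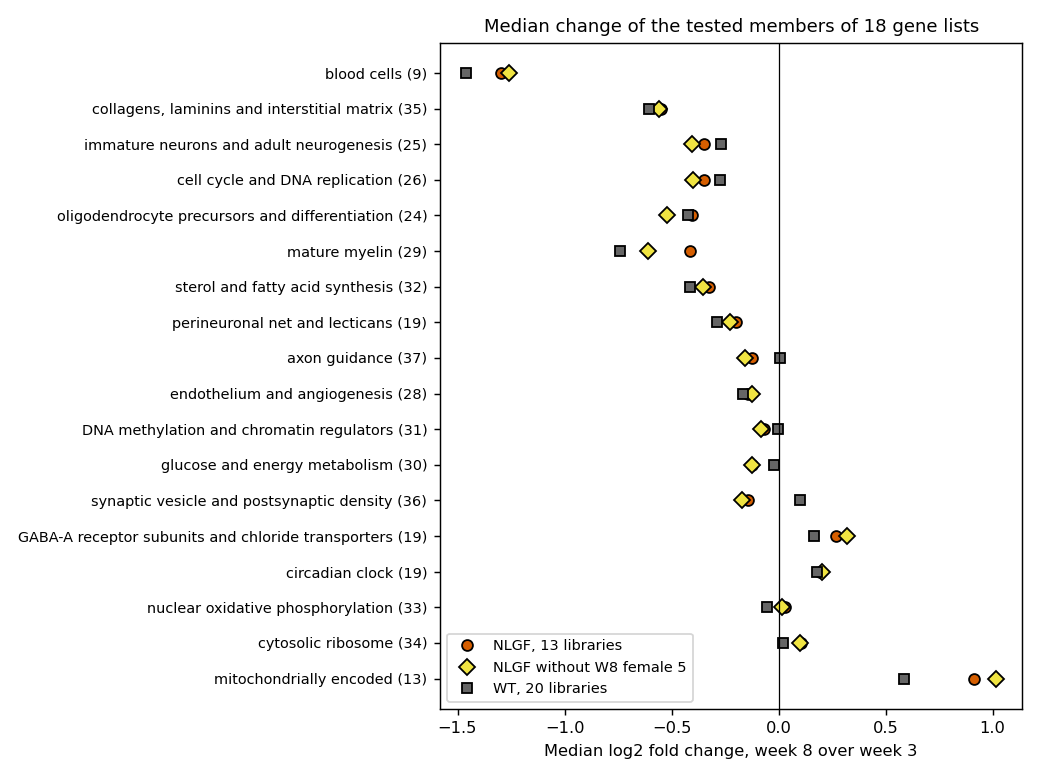
Median log2 fold change of W8 over W3 (horizontal axis) over the tested members of 18 gene lists (vertical axis, number tested in NLGF in brackets) in NLGF with 13 libraries, in NLGF without W8 female 5 and in WT. Blood genes lie lowest in both genotypes (-1.29 and -1.46), and mature myelin moves most when W8 female 5 is left out.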

How the data were processed

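The table analysed holds the authors' deposited counts, whole-number reads per gene for 60 libraries, not normalized. The build is mm10, and the tools listed, with no role given, are STAR, FastQC, DESeq2 and edgeR, per the submitters' processing notes. For the counter, its strand setting and the annotation, nothing is given in the sources used here, so reads of antisense and overlapping genes cannot be told apart. Of 35976 symbols 4405 were at 0 in every library. Libraries were grouped by genotype, age and sex from their titles. Genes were filtered with filterByExpr (minimum count 10), scaled by TMM and tested with edgeR's quasi-likelihood test (edgeR 4.0.16, R 4.3.3, robust, age and sex as terms), and p-values were adjusted by Benjamini-Hochberg across every tested gene, a call being an adjusted p under 0.05. The standard error is the absolute log2 fold change over the square root of F. The difference between genotypes was the interaction term. The scripts were tested on simulated data.

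The members and lists were chosen with earlier results of these data known. Genes named were a set of anchor genes, up to 15 called genes per direction with the largest fold change (averaging 1 CPM or more, unnamed gene models left out), the 3 per direction with the smallest p, and up to 4 called members per list by smallest p, with other members where their role needed it. Gene pairs were tested with scipy 1.17.1, exactly in NLGF and with 100000 resamples in WT. Totals per library in the NLGF comparison ran from 19469508 to 35162084, which sets the precision of genes with few reads. Alternatives were DESeq2 1.42.0, voom with sample weights (limma 3.58.1), other scalings, filters and sets of libraries, a test against a fold of 1.2, and leaving out each library. Some list members enter the counts but are not reported here by name.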

Additional observations from a re-analysis of the deposited data

Results flagged for a closer look

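Among the 10 NLGF W8 libraries, 30 of 156 gene levels examined had 1 library far from the others (Dixon's criterion at 95%). The criterion's rate of about 1 in 20 holds for independent, normally distributed values. These genes share the same libraries and most were named for their calls, so that rate is no measure of chance here. W8 female 5 was the library that stood apart for 21 of the 30. It was the highest for the oligodendrocyte and node genes Mbp at 5835 CPM (others 1534 to 2549), Gpr17 at 135 CPM (others 48.2 to 64.1), Itpr2 at 56.7 CPM (others 39.4 to 47.7), Ank3 at 1157 CPM (others 908 to 1037) and Nfasc at 936 CPM (others 386 to 472). It was also the highest for Dnmt3a at 163 CPM (others 95 to 115), Il12rb1 at 2.25 CPM (others 0.229 to 0.794), Slc45a3 at 6.06 CPM (others 0.916 to 1.88), Cldn14 at 3.28 CPM (others 0.429 to 1.04), Rassf10 at 4.22 CPM (others 1.47 to 2.36) and Mkrn3 at 2.31 CPM (others 0.505 to 1.39). The remaining levels at which it was the highest were Apc at 723 CPM (others 560.5 to 612), Top2a at 4.97 CPM (others 2.08 to 2.94), Ephb2 at 59.6 CPM (others 33.1 to 44), Col4a2 at 64 CPM (others 49.2 to 56.2), Tnc at 26.6 CPM (others 13 to 16.6), Fabp5 at 63.1 CPM (others 43.4 to 50.7), Hr at 49.1 CPM (others 18.6 to 28.5) and Tet3 at 164 CPM (others 106 to 129). It was the lowest for Grin3a at 46.2 CPM (others 62.3 to 80.1) and Il33 at 10.5 CPM (others 31.1 to 47).

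Other libraries stood out at single genes. W8 female 1 had the highest level of Scn3a at 103 CPM (others 67.3 to 82.8) and Plcz1 at 2.59 CPM (others 0.844 to 1.62). W8 male 3 had the highest level of Hba-a1 at 56.6 CPM (others 19.3 to 37.6), Hba-a2 at 26.7 CPM (others 8.49 to 17.4) and Ndufv2 at 93.4 CPM (others 81 to 86.4). W8 male 4 had the highest level of Ttr at 4830.2 CPM (others 154 to 2163), and Ttr is made by the choroid plexus, whose summed level ranged from 499 to 8333 CPM over the W8 libraries. W8 male 5 had the highest level of Fos at 37.2 CPM (others 5.56 to 21.2), Vipr2 at 1.83 CPM (others 0.429 to 0.77) and Elavl4 at 79.4 CPM (others 41.8 to 61.2).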

How the results depend on the processing

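The number of genes called in NLGF (1852) was 2817 with DESeq2, 1175 with 3 W8 libraries of the same numbers, 10 with females only, 263 with all 60 libraries in 1 fit and 28 in a test against a fold of 1.2. Leaving out each library in turn gave 28 (without W3 male 1) to 3149 (without W3 female 3), with 451 without W3 female 2, 998 without W8 female 3, 1233 without W8 female 2 and 2904 without W8 female 5. Chosen after seeing the data, leaving out W8 female 5 and also W3 female 3 gave 3909, and W8 female 5 and also W3 male 1 gave 489. With the replicate block of sex and number it was 1849, and 1159 of the 1852 calls were kept. The correlation of deviations between libraries of the same number was 0.01, 0.20 and 0.08, and 1 of 3 correlated best with its own number. With 3 W3 libraries these correlations cannot show whether libraries of the same number were handled together. In WT (827) voom gave 1959, the replicate block 508, and 3 W3 libraries of the same numbers 231, and leaving out each library gave 613 to 1808 (the latter without W8 female 1). The difference between genotypes (0) gave 1 with all 10 NLGF W3 libraries, 422 with the 7 deeper ones in place of the 3, and 0 without each library in turn. With all 10 NLGF W3 libraries the pair ratios passed for Grin2a:Grin2b (0.15), Bcan:Ncan (0.10), Mog:Pdgfra (-0.56) and Calb1:Dcx (0.73). The cause of these changes was not tested.

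For some genes the direction turned with the W3 libraries used. Against only the 7 deeper W3 libraries 3057 genes were called, and the log2 change reversed to Grin2a 0.30, P2ry12 -0.35, ND6 -0.22, Adnp -0.10, Bc1 -6.955, ND2 -0.45, Cmc4 -0.13, Spa17 -0.10, Snord64 -0.51, Mitd1 -0.042, Zbbx -0.083, Pnrc1 -0.16, Fam120aos -0.12, Ccne2 -0.27, Hist1h4h -0.14, Stmn4 0.25, Plxna4 0.074, Ank2 0.012, Acaca 0.13, Fasn 0.0027, Homer1 -0.088, Pou3f1 -0.093, Aldh1l1 0.015, Sox9 -0.28, Fabp5 0.19, B2m -0.15, Foxc1 -0.28, Msi2 -0.22, Elavl4 -0.21, Ptbp2 -0.027, Ngfr -0.28, Egr4 -0.30, ND5 -0.32, CYTB -0.39, Ndufv2 -0.021, Pfkm 0.18, Aph1a 0.085. With all 10 W3 libraries it reversed to Bc1 -6.425, ND2 -0.11, Snord64 -0.21, Ccne2 -0.044, Stmn4 0.060, Sox9 -0.13, B2m -0.034, Foxc1 -0.047, Msi2 -0.085, Elavl4 -0.027, Ngfr -0.029, Egr4 -0.12, ND5 -0.044, CYTB -0.11. Of the values for named genes under all alternatives 3344 kept their side of the threshold, 1025 lost the threshold, 40 gained it and 51 reversed. A reversal was counted only for a gene called with the main setting or with the alternative. The 3344 therefore include changes of sign in genes that were not called, App among them (-0.13 to 0.07). Depth limits genes under 1 CPM.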
